A study of Schizosaccharomyces pombe with 8 samples.

Results

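The genes described here take up iron, make or carry iron-binding siderophores, or control those genes in the fission yeast Schizosaccharomyces pombe. They were chosen by symbol, with earlier results of these data known, as frp1, fio1, fip1, fet4, str1, str2, str3, sib1, sib2 and fep1. All 10 were on the array with 1 probe set each, among 2896 S. pombe genes named in the annotation, and all 10 were among the 2892 genes bright enough to test. Total RNA came from an opi10- strain and an opi10+ strain. The opi10 gene is the fission yeast relative of human Hikeshi, a carrier of HSP70 chaperones into the nucleus. Both strains grew at 30C in Edinburgh minimal medium, were harvested in mid-log phase before heat and again when 1 h at 43C had passed, and then recovered at 30C, with harvests 1 h and 3 h into recovery. This gave 8 Affymetrix arrays, 1 for each strain at each stage. The labels do not give the nature of the opi10- allele, the rest of either genotype, the iron content of the medium, or whether 1 culture or several supplied a strain's arrays. P-values therefore measure the spread between these arrays, which may be technical. No probe set is named opi10 in the annotation used here, so the strain labels could not be checked by that gene's level.

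Fission yeast takes up iron by a reductive route and by siderophores. In the reductive route, ferric iron is reduced at the cell surface by the reductase Frp1, then oxidised by the multicopper oxidase Fio1 and passed through the permease Fip1. Fet4 is related to a low-affinity iron transporter of budding yeast. Sib1, a peptide synthetase, and Sib2, an ornithine monooxygenase, make the siderophore ferrichrome, and Str1, Str2 and Str3 are siderophore transporters of the plasma membrane, Str3 also taking up haem. When iron is plentiful, the GATA factor Fep1 represses these genes together with the co-repressors Tup11 and Tup12. When iron is scarce, Php4 joins the CCAAT-binding complex and represses genes of iron use, fep1 among them.

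The deposited median signal over S. pombe probe sets ran from 492.5 to 1096 and was lowest on both 43C arrays. The mean of 18 spike-in probe sets lay between 10.06 and 10.28 on the log2 scale on all 8 arrays. That mean does not measure the amount of S. pombe RNA per cell. Signals below are those after quantile normalization of the S. pombe probe sets, and changes are differences of log2(signal + 16), which understates changes of dim genes. A change is thus relative to the other genes of the array: on the deposited scale the median of all genes moved by -0.915 at 43C, 0.105 at 3 h against before, and 0.916 between 43C and 1 h. Probe sets of the budding yeast Saccharomyces cerevisiae, which share the array, gave the background. Their 95th percentile lay between 13.0 and 17.0 in deposited signal, and those of budding yeast FET4 and ARN1, relatives of the genes described, lay between 0.815 and 12.1. Stages were compared with limma in a model with terms for strain and stage. A change was called at a Benjamini-Hochberg adjusted p under 0.05 over all 2892 genes. Each stage then has 2 arrays, 1 per strain, and the error measures how far the strains' responses differ. In whole cultures, fewer cells with a transcript and less of it per cell cannot be told apart.

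In the reductive route, fip1 and fio1 fell on heating, whereas the changes of frp1 and fet4 were not called after quantile normalization. The permease gene fip1 (SPAC1F7.07C) had signals of 1336 before heat, 40.6 at 43C, 151.2 at 1 h of recovery and 1264 at 3 h in opi10-, against 840.6, 36.0, 136.3 and 332.8 at the same stages in opi10+. The strains were close to each other at 43C and at 1 h and apart at 3 h. Its fitted change at 43C was -4.31 ± 0.40 log2 (SE, 2 arrays per stage), 19.8-fold lower than before (adjusted p = 1.3e-04), and ranked 1 among the falls of all genes. Under the other settings that fall ran from 11.0-fold with a pseudocount of 64 to 31.9-fold on the deposited scale. In deposited units fip1 read 23.2 in opi10- and 21.2 in opi10+ at 43C. The 95th percentile of the budding yeast probe sets was 13.2 on both arrays. The sizes of its changes to and from 43C are therefore limited by the background. Background for that contrast was wide: 39.8% of all tested genes fell at 43C and 32.8% rose. At 1 h of recovery fip1 was still at -2.75 ± 0.40 log2 against its level before heat (adjusted p = 0.00224), although it had risen by 1.56 ± 0.40 over 43C (adjusted p = 0.0133). That rise was not called without the opi10+ array at 1 h (adjusted p = 0.115) or the opi10- array at 43C (adjusted p = 0.0695).

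The multicopper oxidase gene fio1 (SPAC1F7.08) lies beside fip1 on the chromosome and also fell on heating. Its signals were 1455, 410.2, 232.6 and 1389 in opi10- over the 4 stages and 850.4, 443.7, 209.8 and 418.0 in opi10+. After normalization both strains were lowest at 1 h of recovery, but the change from 43C to 1 h was not called (adjusted p = 0.083). In deposited units both were lowest at 43C, with 208.6 there and 291.8 at 1 h in opi10-, and 204.5 and 256.7 in opi10+. The change of fio1 was -1.35 ± 0.39 at 43C (adjusted p = 0.0190) and -2.25 ± 0.39 at 1 h (adjusted p = 0.00424), both against before. The fall at 43C was no longer called on leaving out the opi10+ array before heat (adjusted p = 0.0533), its opi10- counterpart (0.0821) or the opi10- array at 43C (0.133). By contrast, the fall at 1 h was called whichever array was left out.

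The reductase gene frp1 (SPBC1683.09C) had the highest residual SD of all genes. In opi10- its signals were 639.3, 75.7, 52.4 and 1067 over the 4 stages, and in opi10+ they were 176.4, 158.9, 51.9 and 102.9. At 43C the opi10- array stood at 11.8% of its level before heat and the opi10+ array at 90.1%. The fitted changes of -1.49 ± 0.89 at 43C (adjusted p = 0.169) and -2.38 ± 0.89 at 1 h (adjusted p = 0.0603) were not called, although the change at 1 h ranked 5 among the lowest of all genes. Its residual SD was 1.30 log2, where the median of the 2892 genes was 0.101 and the 95th percentile 0.275. On the deposited scale the changes at 43C and at 1 h, -2.50 and -2.27, were called (adjusted p = 0.0128 and 0.0365), and with arrays centred on their median that at 1 h was (-2.33, adjusted p = 0.0280).

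The low-affinity transporter gene fet4 (SPBP26C9.03C) was not called between any stages after quantile normalization. It had 173.1, 114.7, 184.3 and 747.3 in opi10- over the 4 stages, against 150.6, 174.5, 183.9 and 176.4 in opi10+. The opi10+ arrays all lay between 150.6 and 183.9, and the opi10- array at 3 h stood above the other 7 arrays. Adjusted p-values for the contrasts between stages ran from 0.137 to 0.812. Its change at 3 h against before, 1.11 ± 0.53, is the mean of 2.01 in opi10- and 0.21 in opi10+. On the deposited scale fet4 fell by 1.25 at 43C (adjusted p = 0.0224) and rose by 1.496 at 3 h (adjusted p = 0.0270), both against before, and with arrays centred on their median the rise at 3 h, 1.35, was called as well (adjusted p = 0.0314).

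**Figure D1:**
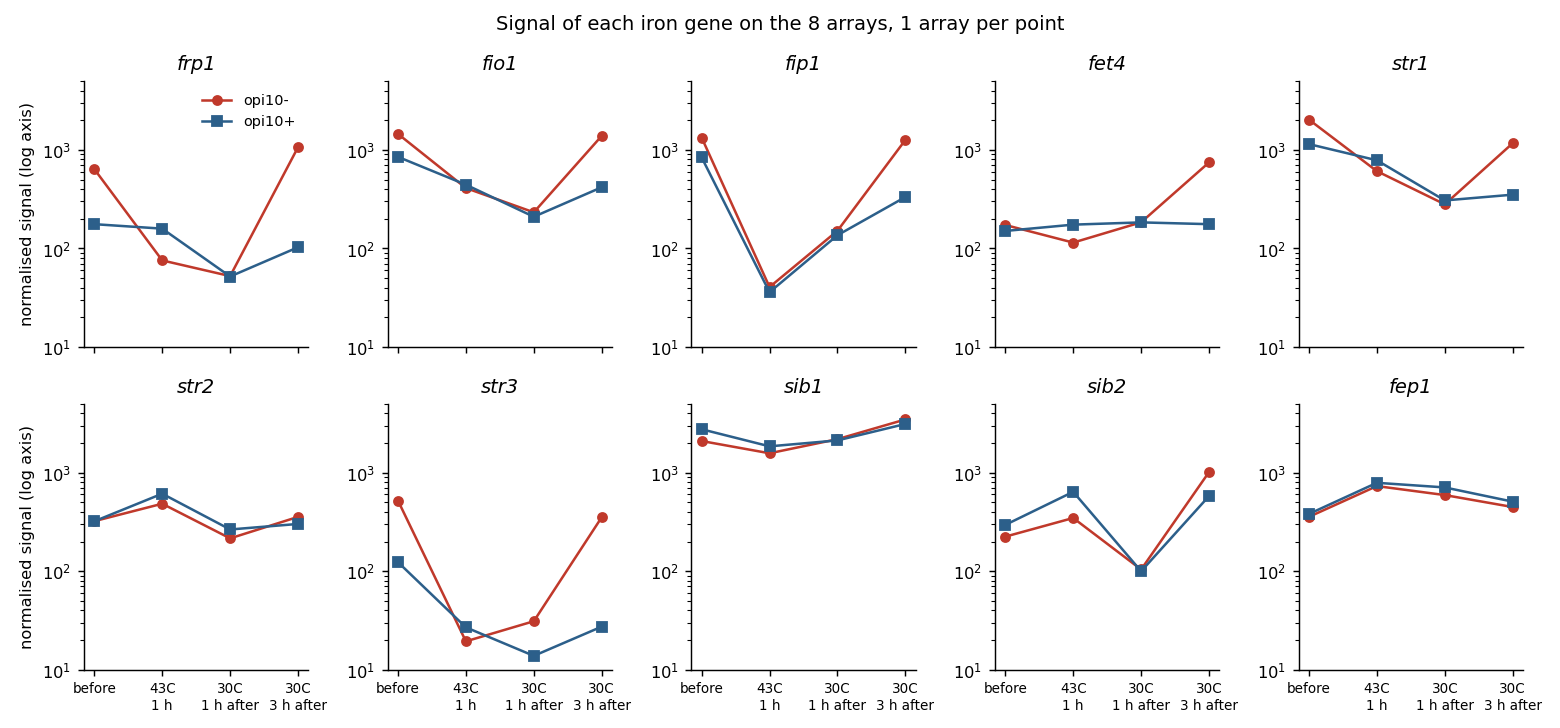
Quantile-normalised signal (log axis) of each of the 10 genes over the 4 stages, 1 array per point, opi10- as circles and opi10+ as squares. The strains lie close together at 1 h of recovery for all genes but str3, and opi10- is well above opi10+ at 3 h for frp1, fio1, fip1, fet4, str1 and str3.

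Of the siderophore transporter genes, str1 and str3 were below their earlier level at 1 h of recovery, and the change of str2 was not called there. The transporter gene str3 (SPAC1F8.03C) had 520.8, 19.4, 31.1 and 352.7 in opi10- over the 4 stages and 123.6, 26.9, 13.8 and 27.4 in opi10+. In deposited units it read 13.5 in opi10- and 17.3 in opi10+ at 43C, near the 95th percentile of the budding yeast probe sets on those arrays (13.2 in both). At 1 h it read 35.9 in opi10-, and in opi10+ 14.5, below the percentile of 16.3 on that array. The sizes of its changes at these stages are therefore limited by the background. The change was -2.81 ± 0.71 at 43C (adjusted p = 0.0108) and -2.87 ± 0.71 at 1 h (adjusted p = 0.0157). Both calls depended on the opi10- array before heat, without which the adjusted p was 0.0629 at 43C and 0.0828 at 1 h. The call at 43C was also lost without the opi10- array at 43C (0.0626), and that at 1 h without the opi10+ or the opi10- array at 1 h (0.0524 and 0.118).

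The ferrichrome transporter gene str1 (SPBC4F6.09) was not called at 43C and fell by 1 h of recovery. Its signals were 2030, 609.0, 280.5 and 1170 in opi10- over the stages, against 1146, 784.6, 307.2 and 351.4 in opi10+. It was lowest at 1 h of recovery in both strains after normalization, although the change from 43C was not called (adjusted p = 0.0565). In deposited units opi10- read 338.4 at 43C and 358.4 at 1 h. The change was -1.12 ± 0.46 at 43C (adjusted p = 0.0621) and -2.32 ± 0.46 at 1 h (adjusted p = 0.00650), rank 6 among the falls. The call at 1 h was lost without the opi10- array of that stage (adjusted p = 0.0642), and the change at 43C was called on the deposited scale (-2.10, adjusted p = 0.00109).

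The third transporter gene, str2 (SPCC61.01C), had 321.6, 483.6, 215.3 and 355.8 in opi10- and 320.8, 611.2, 264.9 and 301.5 in opi10+. It was highest at 43C in both strains after normalization and rose there by 0.73 ± 0.15 (adjusted p = 0.00374), but on the deposited scale it fell by 0.43 (adjusted p = 0.00923). From 43C to 1 h it fell by 1.13 ± 0.15 (adjusted p = 7.1e-04), against a change of 0.08 on the deposited scale. At 3 h against before it stood at 0.03 ± 0.15 (adjusted p = 0.896).

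The neighbouring synthesis genes sib1 and sib2 both rose between 1 h and 3 h of recovery, after different courses up to then. The peptide synthetase gene sib1 (SPAC23G3.02C) was the most even of the uptake and synthesis genes, with 2093, 1572, 2185 and 3464 in opi10- and 2755, 1848, 2123 and 3118 in opi10+. It fell by 0.49 ± 0.14 at 43C (adjusted p = 0.0180) and rose by 0.45 ± 0.14 at 3 h against before (adjusted p = 0.0425). The fall was not called with arrays centred on their median (-0.26, adjusted p = 0.157), without the array of opi10+ before heat (0.120) or without the opi10- array at 43C (0.104). The rise was called when the opi10+ array before heat or at 3 h was left out, and not when any of the other 6 was (0.0554 to 0.254), nor on the deposited scale (0.0803), with median centring (0.185) or with a pseudocount of 1 (0.0512).

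The monooxygenase gene sib2 (SPAC23G3.03) had 224.0, 346.5, 104.0 and 1014 in opi10- over the stages, and 294.8, 638.6, 99.8 and 579.0 in opi10+. Both strains were lowest at 1 h. The highest array was that at 3 h in opi10- and that at 43C in opi10+, while in deposited units the 3 h array was highest in both strains, at 1215 in opi10- and 793.6 in opi10+. The change was 0.83 ± 0.34 at 43C (adjusted p = 0.0643, and -0.33 on the deposited scale), -1.21 ± 0.34 at 1 h (adjusted p = 0.0249) and 1.52 ± 0.34 at 3 h (adjusted p = 0.0148). Between 1 h and 3 h sib2 rose by 2.73 ± 0.34 (adjusted p = 0.00178), rank 5 among the rises of all genes. The calls against before were lost without either array before heat or at 1 h for the fall at 1 h (adjusted p from 0.0596 to 0.137), and for the rise at 3 h without the opi10- array before heat (0.0889) or at 3 h (0.0634).

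The repressor gene fep1 (SPAC23E2.01) rose on heating and came down during recovery. Of the 9 genes it is known to repress, 4 fell at 43C (fip1, fio1, str3 and sib1) and str2 rose. The changes of frp1, fet4, str1 and sib2 were not called. Those counts are to be read beside all genes, of which 39.8% fell and 32.8% rose at 43C. Signals of fep1 were 355.8, 730.3, 591.9 and 447.6 in opi10- over the stages and 380.7, 788.4, 707.7 and 507.5 in opi10+, highest at 43C in both strains. It rose by 1.01 ± 0.08 at 43C (adjusted p = 7.9e-05), by 0.79 ± 0.08 at 1 h (adjusted p = 8.1e-04) and by 0.36 ± 0.08 at 3 h (adjusted p = 0.0153), all against before. The rise at 43C is one relative to the other genes: on the deposited scale it was -0.00313 (adjusted p = 0.978), with 404 before and 429 at 43C in opi10- and 472 and 443 in opi10+. The rise at 3 h was lost on leaving out the opi10+ array before heat or either array at 3 h (adjusted p from 0.0586 to 0.0699). The residual SD of fep1, 0.0511, ranked 2461 of 2892 from the highest.

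**Figure D2:**
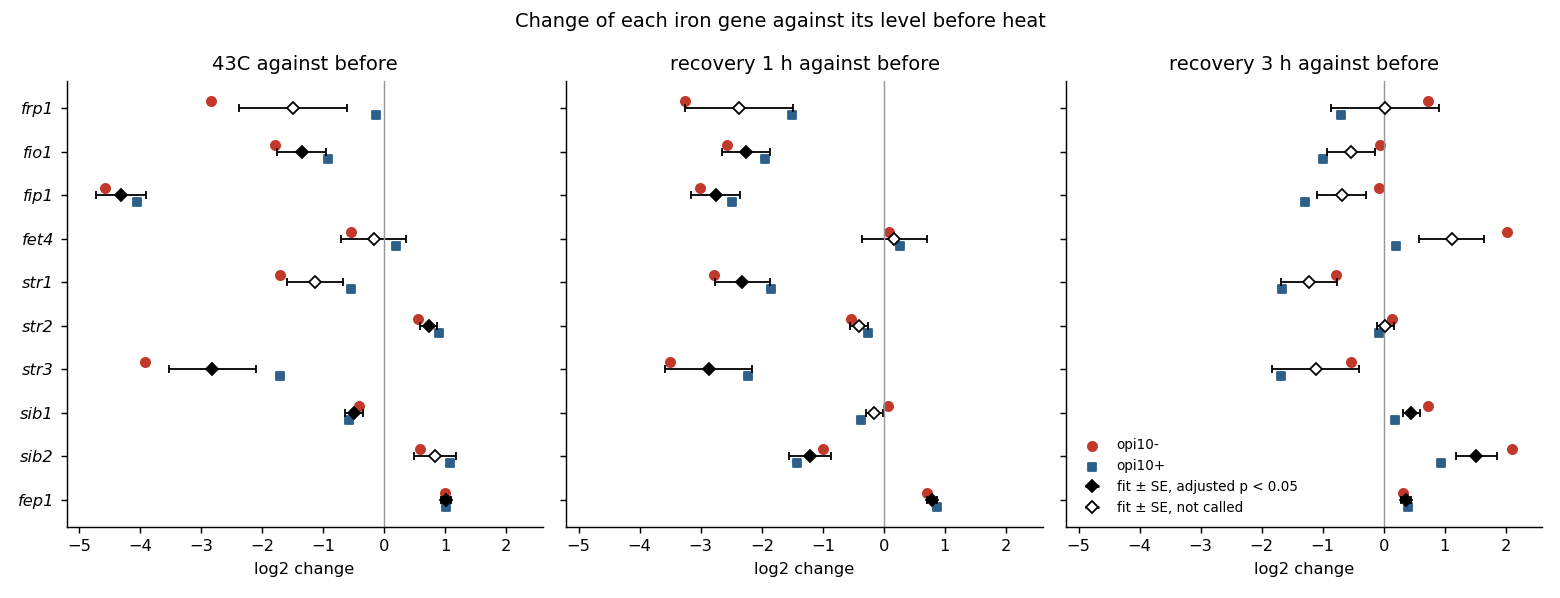
Log2 change of each gene against its level before heat, with panels for 43C, recovery 1 h and recovery 3 h. Circles give opi10-, squares opi10+, and diamonds the fit with its SE (2 arrays per stage), filled where the adjusted p was under 0.05. The fall of fip1 at 43C lies farthest from 0, and frp1 and str3 show the widest gaps between the strains.

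By stage, falls were called for 4 of the 10 genes at 43C and rises for 2, where 39.8% of all genes fell and 32.8% rose, the median change being -0.81 log2, against -0.07 over all genes. At 1 h of recovery 5 fell and 1 rose against before, with a median of -1.73 against 0.00 over all genes, where 27.3% of all genes fell and 25.6% rose. The 10 genes held ranks 1, 2, 5, 6 and 7 among the lowest changes of all genes at 1 h, with str3, fip1, frp1, str1 and fio1, of which frp1 was not called and str3 was near background. At 3 h none fell and 3 rose, namely sib1, sib2 and fep1, with a median of 0.02, against -0.03 over all genes, where 22.2% of all genes fell and 19.7% rose.

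In the first hour of recovery 1 gene rose over 43C, namely fip1, and 3 fell, namely str2, sib2 and fep1, where 35.1% of all genes rose and 30.3% fell. The fall of fep1 was -0.22 ± 0.08 (adjusted p = 0.0486), and on the deposited scale it turned to a rise of 0.83 (adjusted p = 1.1e-04). It was not called with median centring (adjusted p = 0.191), without the strain term (0.124) or with trended robust moderation (0.0599). Most fits with 1 array left out did not call it either. Between 1 h and 3 h, 5 genes rose, namely fio1, fip1, str2, sib1 and sib2, and fep1 fell by 0.43 ± 0.08 (adjusted p = 0.00701), where 23.4% of all genes rose and 23.5% fell. That fall of fep1 was not called on the deposited scale (-0.27, adjusted p = 0.0602), nor was the rise of str2 with a pseudocount of 1 (adjusted p = 0.0551). The rise of fip1 was 2.07 ± 0.40 (adjusted p = 0.00744) and that of fio1 1.72 ± 0.39 (adjusted p = 0.0132), and both calls were lost without the opi10- array at 1 h (0.0710 and 0.106). The rise of sib1, 0.61 ± 0.14 (adjusted p = 0.0142), was lost without either array at 1 h or the opi10- array at 3 h (0.0518 to 0.120). That of str2, 0.43 ± 0.15 (adjusted p = 0.0492), was lost without either array before heat, either at 1 h or that of opi10- at 3 h (0.0566 to 0.317), and the fall of fep1 without the opi10+ array at 1 h (0.0741) or the opi10- array at 3 h (0.0507). The changes of frp1, str3 and str1 in this interval were 2.40 ± 0.89, 1.75 ± 0.71 and 1.09 ± 0.46 (adjusted p = 0.0653, 0.0859 and 0.0941), and all 3 were called without the opi10+ array at 3 h.

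The strains parted before heat and again at 3 h. These differences compare 1 array with 1 array and were therefore neither replicated nor tested. Before heat, opi10- was higher than opi10+ in 7 of the 10 genes, where it was higher in 55.6% of all genes, by 1.94 log2 in str3, 1.77 in frp1, 0.82 in str1, 0.76 in fio1 and 0.66 in fip1, with a median of 0.42 against 0.03 over all genes. At this stage 0.104% of all genes, or 3 genes, were at least 2-fold higher in opi10-, with str3 and frp1 at ranks 1 and 2. In either direction 0.657% of all genes, or 19 genes, were 2-fold apart, and the gene lowest in opi10- stood at -2.08. The central 95% of all genes lay between -0.58 and 0.39. The synthesis genes sib1 and sib2 were lower in opi10-, at -0.39 and -0.37.

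At 43C 9 of the 10 genes were lower in opi10-, as were 45.7% of all genes, with a median of -0.30 against 0.02 over all genes. Of these, sib1, sib2 and fep1 had been lower before heat as well, and fio1 was 0.03 higher on the deposited scale. The lowest were frp1 at -0.93, sib2 at -0.85 and fet4 at -0.54. Only these lay outside the central 95% of all genes, -0.50 to 0.43. None of the 10 was 2-fold apart, as were 0.38% of all genes. At 1 h of recovery str3 was 0.66 higher in opi10-, while the other 9 lay between -0.28 and 0.14, and none was 2-fold apart, as were 0.138% of all genes. These counts depend on the added 16: with a pseudocount of 1, frp1 stood at -1.06 at 43C and str3 at 1.11 at 1 h, where 1.04% and 0.346% of all genes were 2-fold apart, and str3 was close to background.

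Of the 4 genes called as falling at 43C, fip1, fio1 and str3 fell further in opi10-, and sib1 fell less, by 0.41 in opi10- and 0.57 in opi10+. At 43C against before, frp1 changed by -2.84 in opi10- and -0.14 in opi10+, and the gap between these responses, -2.70, was the lowest of all 2892 genes. For str3 the changes were -3.92 in opi10- and -1.70 in opi10+, the next lowest gap. At 43C str3 was near background in both strains, which limits the size of both falls and of the gap. Its strain difference was 1.94 log2 before heat and -0.28 at 43C. The gaps were smaller for str1 (-1.71 in opi10- and -0.54 in opi10+), fio1 (-1.79 and -0.91) and fip1 (-4.58 and -4.04).

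At 3 h of recovery, 6 of the 10 genes were at least 2-fold higher in opi10-, against 0.45% of all genes, which is 13 genes. In either direction 0.553% of all genes, or 16 genes, were 2-fold apart. The reductase gene frp1 was 9.11-fold higher in opi10- (3.19 log2), str3 8.50-fold (3.09), fet4 3.97-fold (1.99), fip1 3.67-fold (1.88), fio1 3.24-fold (1.69) and str1 3.23-fold (1.69). These genes held ranks 1 to 6 of all 2892 genes, ahead of adg1 at 1.60, eng1 at 1.57 and adg2 at 1.53. Because the 10 genes were chosen with earlier results of these data known, their ranks and counts are a description and no independent evidence. The same 6 held those ranks on the deposited scale, with arrays centred on their medians and with a pseudocount of 64, and ranks 1 to 8 with a pseudocount of 1, with fio1 at rank 8. The sizes moved with the pseudocount: str3 stood at 3.65 log2 with 1 and 2.20 with 64, and frp1 at 3.38 and 2.74. Rank 1 went to str3 on the deposited scale, with median centring and with a pseudocount of 1. The gene sib2 was 0.79 higher in opi10-, whereas str2 at 0.23, sib1 at 0.15 and fep1 at -0.18 lay within the central 95% of genes, -0.48 to 0.43.

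**Figure D3:**
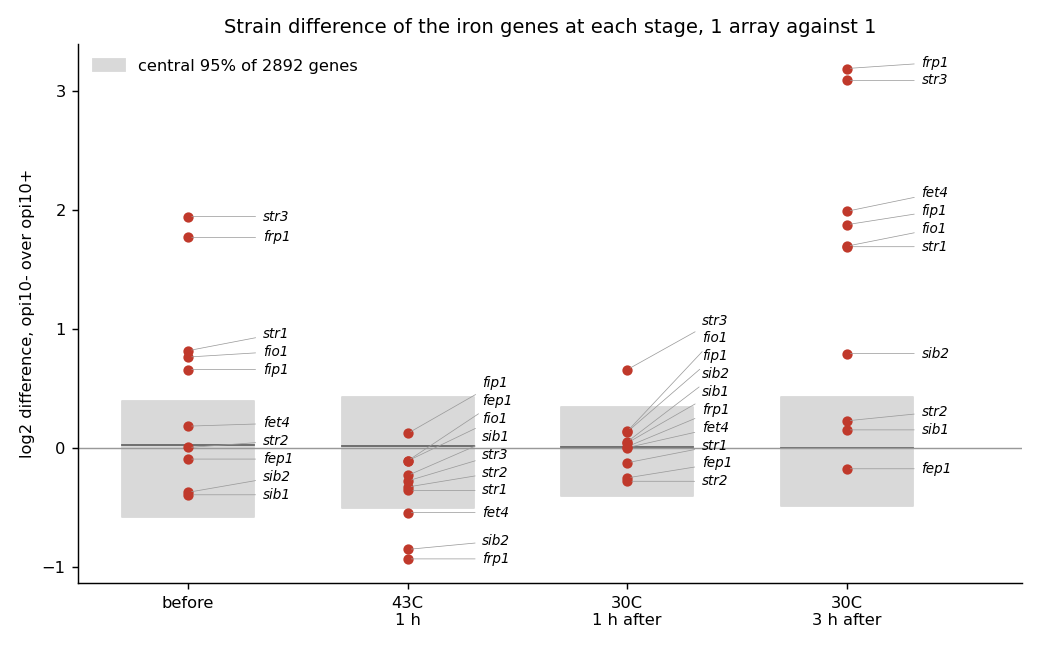
Log2 difference, opi10- over opi10+, of each of the 10 genes at each stage, 1 array against 1. Grey boxes mark the central 95% of the 2892 genes. At 3 h of recovery 6 of the 10 lie at 1.69 or above, and at 43C the genes lie between -0.93 and 0.12.

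The gap at 3 h opened after 1 h of recovery. Between 1 h and 3 h, the change of frp1 was 3.98 log2 in opi10- and 0.81 in opi10+, that of str3 was 2.97 and 0.54, and that of fip1 was 2.94 and 1.20 in the same order of strains. For fio1 the changes were 2.50 and 0.94, for str1 2.00 and 0.19, and for fet4 1.93 and -0.06. At 3 h fio1 and fip1 stood at 95.5% and 94.6% of their levels before heat in opi10-, against 49.2% and 39.6% in opi10+. For str1 and str3 these shares were 57.6% and 67.7% in opi10-, and 30.7% and 22.1% in opi10+. The genes frp1, fet4 and sib2 were above their earlier level in opi10-, at 167% for frp1, 432% for fet4 and 453% for sib2, while in opi10+ they stood at 58.3%, 117% and 196%.

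Averaged over the 4 stages, no gene of the 10 differed between the strains in the fit. The strain term was 1.35 ± 0.50 for str3, 1.01 ± 0.63 for frp1, 0.70 ± 0.29 for fip1 and 0.62 ± 0.28 for fio1 (SE, 4 arrays per strain). Adjusted p-values in limma ran from 0.409 to 0.915. The term called 0 of 2892 genes (0%), with a smallest adjusted p of 0.296, and 317 genes, 3 of the 10 among them, had an unadjusted p under 0.05. This term averages stages where the strains were apart with stages where they were not, and 7 of the 10 genes were among the 16 of 2892 with the highest residual SD: frp1, str3, fet4, str1, fip1, fio1 and sib2.

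Across the 8 arrays the pairs with the most similar courses lay among fio1, frp1, str1, str3 and fip1. Pearson r of log2 values, given as a description over 8 arrays that share stages and strains, was 0.94 between fio1 and frp1 and 0.93 for each of the pairs fio1 and str3, frp1 and str3, and fio1 and str1. Within these 5 genes the lowest r was 0.58, between fip1 and str1, below some pairs with other genes, such as fip1 and sib1 at 0.73. Against the mean course of fip1, fio1, str1, str3 and frp1, r was 0.54 for fet4, 0.50 for sib1, 0.40 for sib2, 0.00 for str2 and -0.85 for fep1. The lowest r of any pair was -0.95, between fip1 and fep1. All r were computed after quantile normalization only. On the deposited scale the change of fep1 was -0.00313 at 43C against before and 0.83 from 43C to 1 h, so its r depends on the scaling. Outside the 10 genes, those most like that mean course were sid4, shf1, mrpl31, erg5, vma8, eng1, spc2 and erg27, with r from 0.95 to 0.91. Of these, eng1, an endoglucanase gene of cell separation, spanned 2.70 log2 over the arrays, and the other 7 spanned 0.35 to 0.94. The genes with the lowest r were epl1, amt2, tef3 and msh3, from -0.95 to -0.94.

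Other genes of iron and metal handling moved with heat in both directions. Lists held 54 such genes on the array. Of these, 23 fell and 13 rose at 43C, or 42.6% and 24.1%, against 39.8% and 32.8% of all genes. On the deposited scale 42 of them fell and 4 rose at that stage, where 73.7% of all genes fell and 11.2% rose. With arrays centred on their median 22 fell and 20 rose, where 37.4% of all genes fell and 38.1% rose. At 1 h 12 fell and 15 rose against before (22.2% and 27.8%), where 27.3% and 25.6% of all genes did. At 3 h 10 fell and 16 rose (18.5% and 29.6%), where 22.2% and 19.7% of all genes did. None of the 54 reached a 2-fold gap between the strains on the log2(signal + 16) scale, which is near the share of all genes. That share ran from 0.138% at 1 h of recovery to 0.657% before heat. Of the 54, 3 came close. The second ferric reductase gene, frp2, had signals of 184.8 in opi10- and 86.7 in opi10+ at 3 h, a gap of 0.97 log2, or 1.09 with a pseudocount of 1. Before heat the metallothionein gene zym1 had 3231 in opi10- and 6452 in opi10+ (-0.99), and the catalase gene ctt1 had 1647 in opi10- and 3206 in opi10+ (-0.95), gaps wider than those of str1, fio1 and fip1 at that stage and in the other direction. The genes frp2, zym1 and ctt1 were named here after their values were seen.

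Among regulators, fep1 included, 4 of 8 rose and 1 fell at 43C, while on the deposited scale 1 rose and 5 fell. Of all genes 32.8% rose and 39.8% fell, or 11.2% and 73.7% on the deposited scale. The co-repressor gene tup11 rose by 1.80 ± 0.10 (adjusted p = 2.0e-05), with 2503 in opi10- and 2555 in opi10+ at 43C, against 737.6 in opi10- and 697.7 in opi10+ before. It also rose on the deposited scale, by 1.14. The CCAAT-binding subunit genes php3 and php5 rose by 0.81 ± 0.09 and 0.27 ± 0.09, but on the deposited scale php3 stood at 0.15 (adjusted p = 0.21) and php5 at -0.70. The glutaredoxin gene grx4, whose product binds Fep1 and Php4, fell by 0.66 ± 0.10 and, on the deposited scale, by 1.29. The gene php4 itself changed by -0.02 ± 0.19 (adjusted p = 0.915). At 3 h php3 and php5 stood 0.68 and 0.59 above before and tup11 at -0.38 ± 0.10, a fall not called on the deposited scale. In php4 the opi10- array at 3 h was 0.35 higher than the opi10+ array, with no test. That gap lay inside the central 95% of all genes, -0.484 to 0.427, and was 0.36 before heat. The gap of php2 at 3 h was larger, at 0.435.

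In haem synthesis 7 of 8 genes fell at 43C and none rose, where 39.8% of all genes fell and 32.8% rose. They fell by 2.01 ± 0.21 for the ferrochelatase gene hem15, 1.05 ± 0.09 for hem1, 1.00 ± 0.10 for hem2 and 0.88 ± 0.09 for hem12. On the deposited scale all 8 fell, as did 73.7% of all genes. At 1 h 6 of 8 were called below before, where 27.3% of all genes were. At 3 h 4 were called below and 1 above, where 22.2% of all genes were below and 19.7% above. These counts were 2 and 2 on the deposited scale, where 11.4% of all genes were below and 26.8% above. The gene above was the coproporphyrinogen oxidase gene hem13 at 0.56 ± 0.13 (adjusted p = 0.018). The ferrochelatase inserts iron into the porphyrin ring. Signals of hem15 were 615.1, 145.6, 370.8 and 840.6 in opi10- over the stages and 783.7, 177.8, 362.9 and 564.6 in opi10+.

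Of 10 iron-sulphur cluster assembly genes, 4 rose and 3 fell with heat at 43C, against 1 and 7 on the deposited scale, counts near the shares of all genes on each scale (32.8% and 39.8%, or 11.2% and 73.7%). The scaffold gene isu1 rose by 1.35 ± 0.10, while etp1 fell by 1.52 ± 0.10 and the ferredoxin reductase gene arh1 by 1.25 ± 0.10. Of 14 genes for enzymes that use iron, 6 fell and 2 rose at 43C, or 11 and 1 on the deposited scale. The same shares of all genes apply to these counts. The catalase gene ctt1 rose by 1.59 ± 0.27 (adjusted p = 0.0020), and the biotin synthase gene bio2 and the succinate dehydrogenase gene sdh1 fell by 1.22 ± 0.08 and 0.98 ± 0.08. At 3 h ctt1 was still 1.27 ± 0.27 above before (adjusted p = 0.013). Both vacuolar genes were called, with the iron transporter gene pcl1, the neighbour of frp1, up by 0.44 ± 0.08 and abc3 down by 0.51 ± 0.13 at 43C, and both up at 1 h and 3 h. The fall of abc3 at 43C was not called on leaving out the array of opi10+ before heat (0.0536) or the opi10- array at 43C (0.0759). At 3 h no left-out array kept both calls, and with arrays centred on their median neither was made (adjusted p = 0.205 for pcl1 and 0.0917 for abc3); at 1 h that setting did not call abc3 (0.0843). On the deposited scale pcl1 stood at -0.22 at 43C (adjusted p = 0.058).

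Copper, which the Fio1 oxidase needs, and zinc genes also changed. In copper supply 2 of 6 genes rose and 2 fell at 43C, whereas on the deposited scale none rose and 5 fell. Of all genes 32.8% rose and 39.8% fell, or 11.2% and 73.7% on the deposited scale. The permease gene ctr4 rose by 1.18 ± 0.21 and the regulator gene cuf1 by 0.40 ± 0.11 (0.38 and -0.72 on the deposited scale, the rise of ctr4 not called), and the vacuolar exporter gene ctr6 and the copper chaperone gene atx1 fell by 1.16 ± 0.14 and 0.70 ± 0.08. Of 6 zinc and other metal genes, 3 fell and 1 rose at 43C, or 5 and 1 on the deposited scale, beside the same shares of all genes. The zinc transporter gene zrt1 fell by 1.63 ± 0.11 at 43C (adjusted p = 4.3e-05) and stood 1.31 ± 0.11 above before at 1 h (adjusted p = 5.4e-04). Its signals were 2869, 928, 8035 and 4036 in opi10- and 3075, 971, 6804 and 4429 in opi10+, highest at 1 h in both strains. The metallothionein gene zym1 rose by 1.22 ± 0.26, and zrg17 and cis4 fell by 1.35 ± 0.12 and 1.19 ± 0.08.

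**Figure D4:**
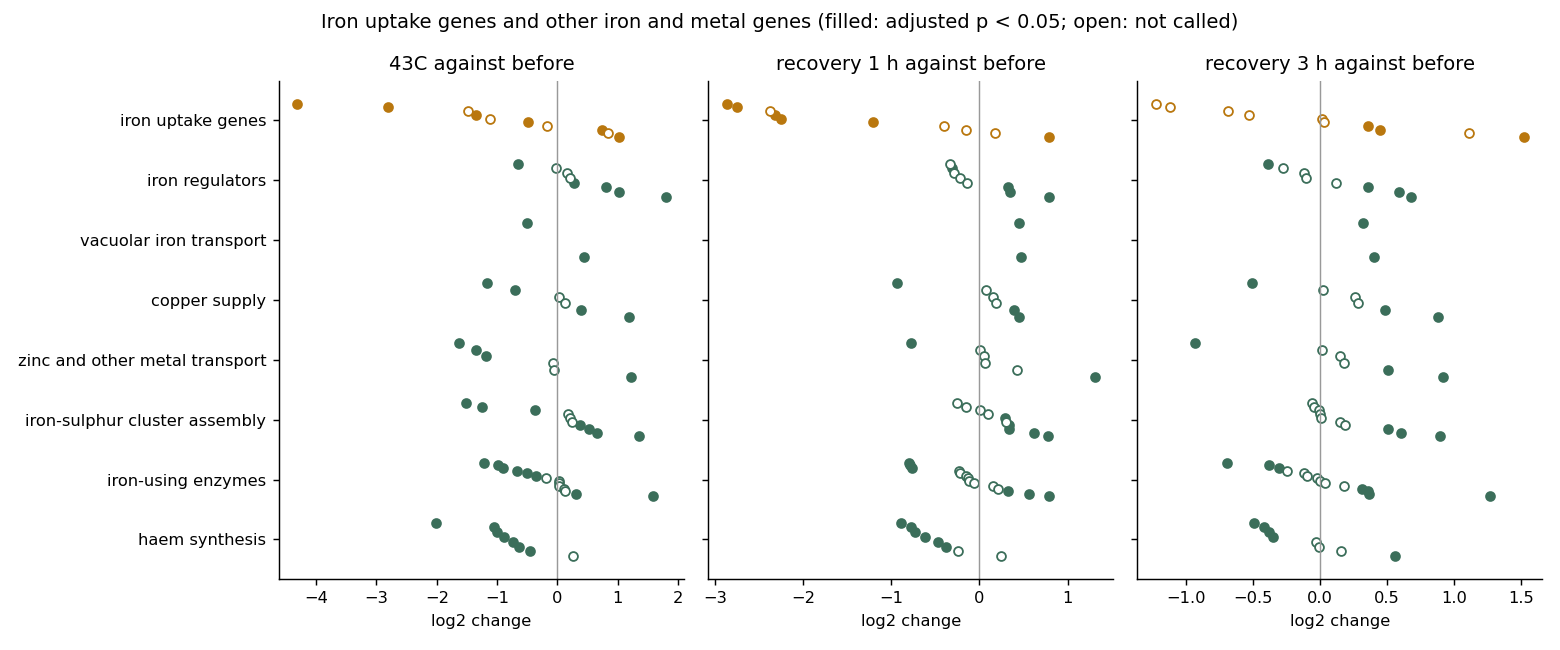
Fitted log2 change against before of the 10 iron uptake genes (top) and, by list, of the other iron and metal genes. Panels are for 43C, recovery 1 h and recovery 3 h, each with its own axis. Of the 54 other genes, frp2 is not drawn. Filled points had an adjusted p under 0.05. Fep1 appears in the top row and among the regulators.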

How the data were processed

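The authors deposited linear intensity values for 10928 probe sets on 8 arrays. The sources used here do not give how probes were summarised or whether arrays were scaled to each other. Extraction used phenol and chloroform and labelling a 3' in vitro transcription kit, per the labels' protocols. Gene names came from the platform annotation, with 113 symbols updated through the ASM294v3 gene table, and gave 2914 S. pombe and 2601 S. cerevisiae probe sets. Sequences and coordinates were not used here.

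Values were taken as log2(value + 16) and quantile normalised over the S. pombe probe sets, because array medians differed by more than 0.5 log2. Genes were tested when their mean exceeded the 75th percentile of S. cerevisiae probe sets (signal 6.04), with the brightest probe set per gene. The test was limma 3.58.1 in R 4.3.3 (lmFit, eBayes) with additive strain and stage terms, 3 residual degrees of freedom and Benjamini-Hochberg adjustment. The procedure was tested on simulated data. The number of arrays limits the precision.

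The 10 genes and the lists were chosen with earlier results of these data known, and the lists are no independent evidence. Genes named were the 10, up to 4 called genes of each list and contrast by size of change, and the 8 highest and 4 lowest in r to the mean course; adg1, eng1 and adg2 in the strain comparison were named for their ranks, after their values were seen. Of the listed names, those such as sib3, shu1 and fra2 were not found on the array by name. The alternatives were the deposited scale, median centring, pseudocounts of 1 and 64, no filter and a filter at the 95th percentile, no strain term, trended robust moderation, all probe sets of a gene, and leaving out each array.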

Additional observations from a re-analysis of the deposited data

Results flagged for a closer look

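Several responses ran in opposite directions in the 2 strains. These compare 1 array with 1 in each strain, and the differences were not tested. Against before, the change of fet4 at 43C was -0.53 log2 in opi10- and 0.19 in opi10+, a difference of -0.73. At 1 h of recovery sib1 moved by 0.06 in opi10- and -0.37 in opi10+, a difference of 0.44. At 3 h of recovery frp1 moved by 0.72 in opi10- and -0.69 in opi10+, a difference of 1.42, and str2 by 0.14 in opi10- and -0.08 in opi10+, a difference of 0.22.

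Between 43C and 1 h of recovery str3 moved by 0.41 in opi10- and -0.52 in opi10+, a difference of 0.93, at signals near the background. Between 1 h and 3 h fet4 moved by 1.93 in opi10- and -0.06 in opi10+, a difference of 1.99.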

How the results depend on the processing

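No pairing other than by strain was possible, because the labels give no replicate numbers that groups share, with 1 array per strain and stage. The strain term already compares stages within a strain, and without it 7 of the 10 genes were called at 43C against before, in place of 6. Each stage rests on 2 arrays, and a stage with 1 array left out is assumed to vary like the others. Where a call or direction changed, the cause was not tested. On the deposited scale 323 genes rose and 2132 fell at 43C, in place of 950 and 1152, and the direction turned for str2 (-0.43), sib2 (-0.33) and fep1 (-0.00313) at 43C against before, and for frp1 (0.23), fio1 (0.38), str2 (0.082), str3 (0.34) and fep1 (0.83) at 1 h against 43C. The split also moved at 3 h against before (776 rose and 330 fell, in place of 569 and 643) and at 1 h against 43C (2272 and 211, in place of 1015 and 877), where 47 pathway genes were called in place of 28. Median centring turned sib1 at 1 h against 43C (-0.075), and a pseudocount of 1 turned frp1 at 3 h against before (-0.019) and put 1 gene 2-fold apart between the strains at 43C (frp1) and 1 at 1 h (str3).

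Leaving out 1 array at a time, the number of the 10 genes called ranged from 4 to 8 at 43C, 3 to 8 at 1 h (3 without the opi10- array at 1 h) and 1 to 3 at 3 h (1 without the opi10- array before heat) against before. It was 2 to 5 at 1 h against 43C (2 without the opi10+ array at 1 h) and 2 to 10 at 3 h against 1 h (2 without the opi10- array at 1 h, 3 without the opi10+ array at 1 h or the opi10- array at 3 h, 10 without the opi10+ array at 3 h). Pathway genes called ranged from 29 to 37 at 43C, 13 to 25 at 1 h, 8 to 23 at 3 h, 17 to 29 at 1 h against 43C, and 9 to 25 at 3 h against 1 h, the low counts coming without an array at 1 h or 3 h, or without the opi10- array before heat. Counts of called genes over all genes moved with the array left out as well, so these ranges are not a trait of the listed genes alone. Changes that turned direction ranged from -0.34 to 0.034 for sib1 at 1 h against before. At 3 h against before the ranges were -1.44 to 1.49 for frp1, -0.19 to 0.25 for str2, -1.27 to 0.19 for fio1, -1.50 to 0.10 for fip1 and -2.22 to 0.035 for str3. At 1 h against 43C they were -2.22 to 0.37 for frp1, -1.18 to 1.06 for str3 and -0.29 to 0.99 for fet4. For fet4 they were -0.81 to 0.46 at 43C, -0.10 to 0.44 at 1 h and -0.12 to 2.03 at 3 h against 1 h, and in the strain term they were -0.12 to 0.72 for fet4 and -0.40 to 0.15 for sib2.

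The fall of fip1 at 43C and at 1 h and that of fio1 at 1 h, each against before, were called under all settings run. So were the rise of fep1 at 1 h against before, the fall of sib2 from 43C to 1 h, and the rise of sib2 from 1 h to 3 h.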
